A study of Mus musculus with 4 samples.

Results

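The expression of 10 integrin subunit genes was followed through sensory neurons of the dorsal root ganglia (DRGs) after nerve injury. They were given by symbol, and all 10 were found among the 31053 genes of each matrix, out of 27 integrin subunit genes present there: the α subunit genes Itga1, Itga2, Itga3, Itga5, Itga6, Itga7, and Itgav and the β subunit genes Itgb1, Itgb5, and Itgb8. Each of the 4 single-cell RNA-seq (scRNA-seq) libraries held GFP+ cells sorted from L4 to L5 DRGs of adult Pirt EGFPf mice aged 7 to 8 weeks, collected on day 7 after surgery. Both sciatic nerves had been loosely ligated (chronic constriction injury, CCI) or had received sham surgery, which gave Male-Sham and Female-Sham libraries beside Male-CCI and Female-CCI ones. Each library pooled 20 DRGs of 5 mice, so the spread between mice could not be measured, and each surgery had 2 replicates, 1 library per sex. Every mouse of every group, sham included, was a heterozygote on the C57BL/6 background in which farnesylated EGFP replaces the coding sequence of 1 Pirt allele under the endogenous Pirt promoter, which thus drives the EGFP used for the sort. Within a litter only 1 kind of surgery was done, so litter and surgery cannot be told apart.

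Integrins are cell surface receptors made of an α and a β chain that bind the extracellular matrix outside the cell and, through talin and other adaptors, the actin cytoskeleton inside. The β1 chain pairs with most of the α chains followed here, of which α3, α6, and α7 bind laminin, α1 and α2 bind collagen, and α5 binds fibronectin, whereas αv also pairs with β5 and β8. In sensory neurons integrins are best known for carrying axon growth on laminin and fibronectin.

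After poor cells and the cells with the highest doublet scores were removed, the libraries held 3281, 5398, 2817, and 3637 neurons (male and female sham, then male and female CCI, the order of every series of 4 values here), with 159902783 to 189489772 unique molecular identifiers (UMIs) per library in those neurons. Neurons were named Sprr1a+ where the log-normalized value of Sprr1a, a gene switched on in injured sensory neurons, was above 1, which held for 42, 144, 1467, and 1789 neurons (1.28%, 2.67%, 52.1%, and 49.2%). In the cells analysed as neurons 6 neuron markers summed to 12089 to 12360 CPM (counts per 1000000 UMIs of the same cells) in sham and 14194 to 15057 CPM in CCI. Tubb3 (2451 to 4688 CPM) and Uchl1 were higher in both CCI libraries. Snap25 (677, 630, 394, and 345 CPM), Rbfox3 (164, 159, 116, and 117 CPM), and Prph were lower there, and Nefl overlapped. Pirt was at 584, 576, 399, and 415 CPM, and Atf3, an injury-induced transcription factor, was at 131, 161, 723, and 729 CPM. Pairs of libraries shared 215 to 513 of the deposited cell barcodes, but at most 6 among the cells kept. Clusters were named from marker genes and are written with "-like", and 2 neuronal clusters without a name are called by their leading genes, Rxfp1 and Ly6a. The Ly6a-led cluster came almost wholly from CCI (3, 1, 140, and 264 cells). Satellite glial cells (SGCs), the glia that wrap DRG neurons, formed an SGC-like class of 109 to 186 cells per library, so the sorted cells were not neurons alone.

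UMIs were summed over the neurons of a library, or of a class or a Sprr1a state within it, and the sums were compared by edgeR's quasi-likelihood test over all genes. A gene was called when the Benjamini-Hochberg adjusted p was below 0.05 and the log2 change was above 0.5 in size. In such sums fewer cells of a type and less RNA per cell cannot be told apart. Since the replicates are pooled libraries, p-values measure the spread between these libraries only.

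Over all neurons, 6 of the 10 genes were higher after CCI than after sham (Itga2, Itga5, Itga7, Itgav, Itgb1, and Itgb8) and none was called lower. Among all 17232 genes tested 27.8% were called, 15.2% higher and 12.7% lower, and the median log2 change was 0.596 for the 10 genes and -0.0061 for all genes. Itga7 and Itga5 had log2 changes near 3, whereas the other 4 called genes lay between 0.59 and 0.76. The differences of Itga1, Itga3, and Itga6, all lower after CCI, were under the size limit, and that of Itgb5 did not pass the test. The summed level of 6 endothelial markers moved with this comparison, at 0.616 and 0.707 CPM in sham and 2.72 and 3.60 CPM in CCI neurons, with none of the 6 at 0. Flt1 made up most of the CCI level, at 1.84 and 2.66 CPM against 0.0308 and 0.0264 CPM in sham, and 46% and 68.3% of its CCI UMIs lay in the Ly6a-led cluster. Cdh5 was also higher in CCI, at 0.252 and 0.231 CPM against 0.0185 and 0.0106 CPM in sham, and so was Kdr, at 0.295 and 0.269 CPM against 0.117 and 0.158 CPM. Pecam1 (0.234 to 0.396 CPM), Emcn (0.0563 to 0.0844 CPM), and Cldn5 (0.0184 to 0.037 CPM) were in neither CCI library above both sham libraries, and the part of endothelial transcripts in the results was not tested.

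**Figure D1:**
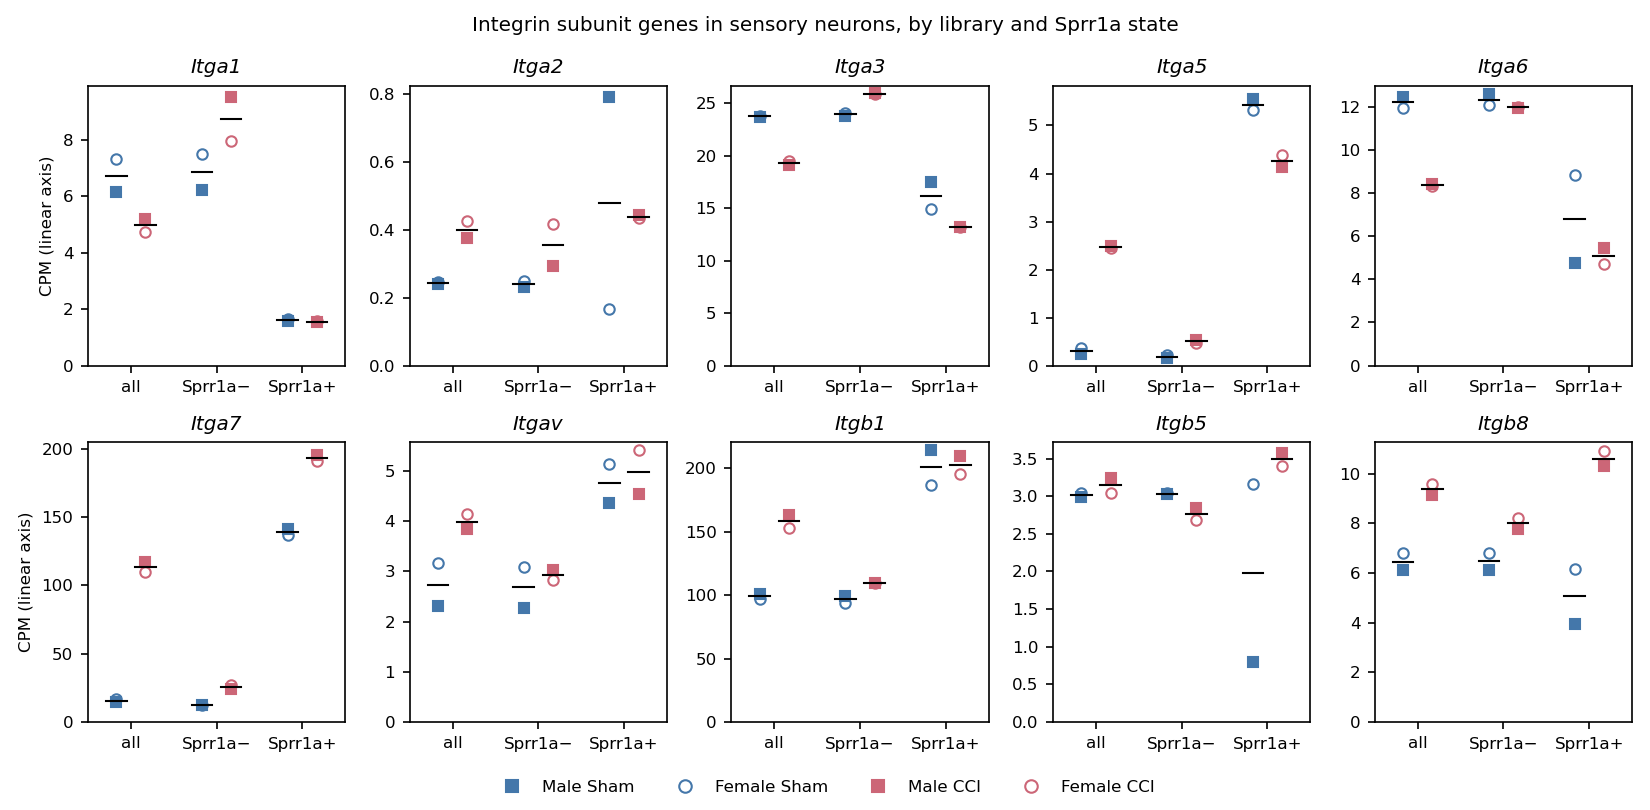
CPM of each of the 10 genes (linear axes from 0) in all neurons, Sprr1a- neurons, and Sprr1a+ neurons of each library, with squares for male and circles for female libraries and a black bar at the mean of the 2 libraries of a surgery. Itga7 lies at 14.4 to 16.6 CPM in all neurons of sham and above 109 CPM in CCI, and its Sprr1a+ neurons are high in both surgeries.

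Itgb1 encodes the β1 chain, the common partner of the α1 to α7 chains followed here (ENSMUSG00000025809, chr8:128685654-128733200, plus strand). Its level in all neurons was 101, 96.9, 164, and 153 CPM. Both CCI libraries lay above both sham libraries (log2 change 0.73 ± 0.057 (SE), adjusted p = 9.39e-05). Within the CCI libraries Itgb1 was at 109 and 109.7 CPM in Sprr1a- neurons of Male-CCI and Female-CCI and at 209 and 196 CPM in Sprr1a+ neurons of the same libraries, a rise that exceeded the spread between libraries (log2 change 1.06 ± 0.034 (SE), adjusted p = 1.11e-09). The Sprr1a- neurons of sham were at 99.3 and 93.9 CPM in Male-Sham and Female-Sham, below those of CCI, but this difference did not pass the test (log2 change 0.16 ± 0.048 (SE), adjusted p = 0.0657).

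Itga7 encodes the α7 chain, which with β1 forms a laminin receptor known from muscle and from regrowing axons (ENSMUSG00000025348, chr10:128933818-128958282, plus strand). It was at 14.4, 16.6, 117, and 109.5 CPM in all neurons, so that both CCI libraries stood far above both sham libraries (log2 change 2.92 ± 0.082 (SE), adjusted p = 5.44e-06). Within the CCI libraries it was at 24.3 and 26.8 CPM in Sprr1a- and 196 and 191 CPM in Sprr1a+ neurons (log2 change 3.09 ± 0.048 (SE), adjusted p = 2.40e-10). An Itga7 UMI was found in 96.8% (CI 95.8% to 97.6%) of Sprr1a+ and 55.0% (CI 52.3% to 57.6%) of Sprr1a- neurons of Male-CCI, with exact binomial 95% confidence intervals (CIs) that cover counting error only, and in 95.3% (CI 94.2% to 96.2%) and 48.8% (CI 46.5% to 51.1%) in Female-CCI. With each cell thinned to 2000 UMIs the shares were 31.5% against 5.48% in Male-CCI and 31.2% against 6.01% in Female-CCI, so the difference was present at equal depth. SGC-like cells also held Itga7, at 145 ± 33.8 CPM (SD, n = 4 libraries), and the part of SGC transcripts in its neuronal level was not tested.

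Itga5 encodes the α5 chain of the fibronectin receptor α5β1 (ENSMUSG00000000555, chr15:103344286-103366763, minus strand). It was near absent from sham neurons, at 0.240, 0.375, 2.48, and 2.45 CPM in all neurons, 110 UMIs in the 2 sham and 795 UMIs in the 2 CCI libraries (log2 change 3.04 ± 0.21 (SE), adjusted p = 5.86e-05). Sprr1a- neurons of CCI held 0.536 and 0.479 CPM and Sprr1a+ neurons 4.13 and 4.38 CPM (log2 change 3.24 ± 0.16 (SE), adjusted p = 1.59e-08). Hence 717 of the 795 Itga5 UMIs of CCI neurons lay in Sprr1a+ neurons. No Itga5 UMI was found in SGC-like cells of any library, while 24 immune-like cells held it at 43.6 CPM. Summed over 8 immune markers, neurons were at 10.7 and 5.67 CPM in sham and 6.41 and 8.17 CPM in CCI. An Itga5 UMI was found in 18.5% (CI 16.6% to 20.6%) and 15.1% (CI 13.5% to 16.9%) of Sprr1a+ neurons of Male-CCI and Female-CCI, a minority of the cells at a median of 60287 and 45680 UMIs per cell.

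Because Itga5 and Itgb1 rose together and encode the 2 chains of 1 receptor, their promoters are shown beside that of Itga3, which fell in the same neurons. Promoters were taken from RefSeq (GRCm38.p6) as 250 bases before to 50 bases after a transcription start, and 8 of the 10 genes matched, Itga3 with 2 promoters. Itga6 and Itga7 were not matched. Capitals mark matches on either strand to the AP-1 motif TGANTCA, bound by Jun and Fos family dimers, or to the GC box GGGCGG (its complement reads ccgccc), bound by Sp family factors. The Itga5 promoter lies at chr15:103366742-103367041, minus strand, the Itgb1 promoter at chr8:128685404-128685703, plus strand, and the 2 Itga3 promoters at chr11:95076665-95076964, minus strand, and chr11:95069149-95069448, minus strand.
Itga5: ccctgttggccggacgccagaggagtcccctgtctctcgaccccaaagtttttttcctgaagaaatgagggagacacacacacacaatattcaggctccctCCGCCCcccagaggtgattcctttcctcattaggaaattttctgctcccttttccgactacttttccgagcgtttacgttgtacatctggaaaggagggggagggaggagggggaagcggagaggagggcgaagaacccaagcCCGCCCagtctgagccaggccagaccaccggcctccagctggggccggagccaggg
Itgb1: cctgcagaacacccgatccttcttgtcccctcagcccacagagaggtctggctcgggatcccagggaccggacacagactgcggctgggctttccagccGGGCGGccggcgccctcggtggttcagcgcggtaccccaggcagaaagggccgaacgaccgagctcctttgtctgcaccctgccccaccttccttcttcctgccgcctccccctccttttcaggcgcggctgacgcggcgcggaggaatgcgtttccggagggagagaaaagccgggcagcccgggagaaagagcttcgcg
Itga3, first promoter: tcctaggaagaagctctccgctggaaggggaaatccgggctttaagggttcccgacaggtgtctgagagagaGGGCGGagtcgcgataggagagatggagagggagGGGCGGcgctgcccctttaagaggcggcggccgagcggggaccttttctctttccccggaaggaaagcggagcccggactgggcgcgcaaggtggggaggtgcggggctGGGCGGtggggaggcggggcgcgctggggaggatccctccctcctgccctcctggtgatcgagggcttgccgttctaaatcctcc
Itga3, second promoter: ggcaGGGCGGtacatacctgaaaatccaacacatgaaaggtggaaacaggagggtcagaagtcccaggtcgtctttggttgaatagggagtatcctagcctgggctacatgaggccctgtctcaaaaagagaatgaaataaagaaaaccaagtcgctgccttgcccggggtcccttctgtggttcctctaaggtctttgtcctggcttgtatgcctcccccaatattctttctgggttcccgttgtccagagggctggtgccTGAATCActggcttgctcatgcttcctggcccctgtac
AP-1 letters were found in 1 of the 8 genes, in the second promoter of Itga3, and in 7.81% of all 32851 mouse promoters of the table. A GC box was found in 6 of the 8 genes and in 35.7% of all promoters. The cAMP response element TGACGTCA (1.79% of all promoters), the STAT motif TTCNNNGAA (8.3%), and the E-box CACGTG (7.15%) were found in none of the 8. These matches describe letters in the windows and are not binding sites.

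Itga3 encodes the α3 chain of α3β1, a receptor for laminin (ENSMUSG00000001507, chr11:95044474-95076801, minus strand). In all neurons it was at 23.7, 23.8, 19.1, and 19.5 CPM, lower in both CCI libraries but by less than the size limit (log2 change -0.24 ± 0.050 (SE), adjusted p = 0.00597). Split by Sprr1a, it was at 26.0 and 25.8 CPM in Sprr1a- and 13.2 and 13.2 CPM in Sprr1a+ neurons of the CCI libraries, and this fall was called (log2 change -0.80 ± 0.049 (SE), adjusted p = 1.22e-07). With any Sprr1a UMI counted as positive it was -0.41 on the log2 scale, under the size limit. SGC-like cells held 4 Itga3 UMIs in all, against 8358 in neurons of sham and 6222 in neurons of CCI.

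Itga6 encodes the α6 chain, which joins β1 or β4 in laminin receptors (ENSMUSG00000027111, chr2:71745616-71858416, plus strand). Its level was 12.4, 12, 8.43, and 8.32 CPM in all neurons, which left CCI below sham by just under the size limit (log2 change -0.49 ± 0.058 (SE), adjusted p = 5.73e-04). It was called lower without Male-CCI (log2 change -0.50), without Female-Sham (-0.52), and without the quartile of neurons richest in SGC transcripts (-0.53). Within CCI it fell from 11.9 and 12 CPM in Sprr1a- to 5.44 and 4.71 CPM in Sprr1a+ neurons (log2 change -1.06 ± 0.079 (SE), adjusted p = 5.36e-07, and -0.52 with any Sprr1a UMI counted as positive). Of the 3 laminin-binding α chains, α7 was thus higher and α3 and α6 lower in Sprr1a+ than in Sprr1a- neurons of both CCI libraries. These levels are sums over all classes, and the direction of Itga3 differed between classes, as given below. The classes highest in Itga6 held few Sprr1a+ cells. All 114 cLTMR-like neurons of Male-CCI were Sprr1a-, and those of Female-CCI counted 207 Sprr1a- and 1 Sprr1a+ cells. PEP5-like neurons counted 156 Sprr1a- and 4 Sprr1a+ cells in Male-CCI and 192 and 11 in Female-CCI. The part of this makeup in the fall of Itga6 was not tested.

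Itga1 encodes the α1 chain of the collagen receptor α1β1 (ENSMUSG00000042284, chr13:114953096-115101964, minus strand). It was at 6.14, 7.31, 5.19, and 4.73 CPM in all neurons, with CCI below sham by less than the size limit (log2 change -0.38 ± 0.11 (SE), adjusted p = 0.0207), which it passed without Male-Sham (log2 change -0.51, adjusted p = 0.00599). Within CCI it was at 9.50 and 7.96 CPM in Sprr1a- and 1.53 and 1.56 CPM in Sprr1a+ neurons (log2 change -2.32 ± 0.11 (SE), adjusted p = 1.27e-08), the largest fall of the 10 genes in that comparison. The log2 change was -4.14 without the quartile of neurons richest in SGC transcripts, -1.82 with doublets kept, and -1.63 with any Sprr1a UMI counted as positive, and was called in each. The makeup of the 2 states differed for the class that holds most of this transcript: PEP2-like neurons, with Itga1 at 111, 94.8, 109, and 88.5 CPM, counted 134 Sprr1a- and 0 Sprr1a+ cells in Male-CCI and 172 and 1 in Female-CCI. Among the Sprr1a- PEP2-like neurons themselves, CCI and sham differed by -0.048 ± 0.090 (SE) (adjusted p = 0.807), with overlapping libraries.

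Itga2 encodes the α2 chain of α2β1, likewise a collagen receptor (ENSMUSG00000015533, chr13:114833081-114932100, minus strand), and was the scarcest of the called genes by UMI count, with 86 UMIs in sham and 129 in CCI neurons. It was at 0.240, 0.248, 0.375, and 0.425 CPM in all neurons (log2 change 0.76 ± 0.21 (SE), adjusted p = 0.0183). Between the Sprr1a states of CCI it did not pass the test (log2 change 0.48 ± 0.29 (SE), adjusted p = 0.155), and the call in all neurons was lost with DESeq2 (adjusted p = 0.139) and without any 1 library (adjusted p 0.0506 to 0.103).

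Itgav encodes αv (ENSMUSG00000027087, chr2:83724397-83806916, plus strand), and Itgb5 (ENSMUSG00000022817, chr16:33829665-33949338, plus strand) and Itgb8 (ENSMUSG00000025321, chr12:119158022-119238802, minus strand) encode the β5 and β8 chains that can join it, αvβ5 as a vitronectin receptor and αvβ8 as an activator of latent TGF-β. Itgav was at 2.31, 3.16, 3.85, and 4.14 CPM in all neurons (log2 change 0.60 ± 0.16 (SE), adjusted p = 0.0182) and rose from 3.03 and 2.84 CPM in Sprr1a- to 4.54 and 5.42 CPM in Sprr1a+ neurons of CCI (log2 change 0.93 ± 0.11 (SE), adjusted p = 3.20e-05, and 0.30 and not called with any Sprr1a UMI counted as positive). The call of Itgav in all neurons was lost without Male-CCI (adjusted p = 0.0628), without Female-CCI (0.0915), and, by size, without Male-Sham (log2 change 0.38). Itgb8 was at 6.11, 6.79, 9.15, and 9.59 CPM (log2 change 0.59 ± 0.074 (SE), adjusted p = 7.15e-04) and went from 7.80 and 8.24 CPM to 10.3 and 10.9 CPM between the same states (log2 change 0.58 ± 0.066 (SE), adjusted p = 1.66e-05). The latter difference rests on the Sprr1a limit, since with any Sprr1a UMI counted as positive it was -0.048 on the log2 scale and did not pass the test (adjusted p = 0.665). Itgb5 hardly differed over all neurons, at 3.0, 3.04, 3.24, and 3.05 CPM (log2 change 0.11 ± 0.095 (SE), adjusted p = 0.346), and passed the size limit narrowly between the Sprr1a states, at 2.84 and 2.69 CPM against 3.58 and 3.40 CPM (log2 change 0.51 ± 0.11 (SE), adjusted p = 0.00182), a call that was lost with DESeq2 (adjusted p = 0.0860) with doublets kept (log2 change 0.43), and with any Sprr1a UMI counted as positive (0.16). With doublets kept the change of Itgb8 in all neurons was 0.49 and was no longer called.

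Itgb8, Itgav, and Itga2 were higher in the neurons that held more SGC transcripts, and the part of these transcripts in the levels and changes of the 3 genes was not tested. Itgb8 was at 520.4 ± 131 CPM in SGC-like cells (SD, n = 4), Itgav at 177 ± 30.7 CPM, and Itga2 at 20.2 ± 4.74 CPM, and the neuronal levels were 1.42% to 1.68%, 1.64% to 2.08%, and 1.28% to 1.97% of the SGC-like levels, where the 8 SGC markers together stood at 0.997% to 1.32%. When the neurons of each library were ordered by their share of UMIs from the SGC markers, the quartile with the highest share held Itgb8 at 25.7 to 34.1 CPM and the lowest quartile at 0.601 to 1.84 CPM. For Itgav these quartiles were at 9.92 to 13.2 CPM and 0.430 to 1.05 CPM, and for Itga2 at 0.95 to 1.66 CPM and 0.0644 to 0.201 CPM, whereas Itga3 lay at 17.6 to 23.3 CPM and 20.4 to 22.3 CPM. The summed SGC markers were lower in CCI neurons, at 1075 and 1258 CPM, than in sham neurons, at 1450 and 1772 CPM. Without the quartile of neurons richest in SGC transcripts the log2 change in all neurons was 1.07 (adjusted p = 0.00273) for Itgb8, 1.56 (adjusted p = 0.00160) for Itgav, and 1.29 (adjusted p = 0.0757) for Itga2, while Itga7 was at 2.95 (adjusted p = 6.12e-06) and Itgb1 at 0.68 (adjusted p = 1.30e-04). Within the CCI libraries the same cut moved the change between the Sprr1a states to 1.19 for Itgb8 and 1.83 for Itgav.

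**Figure D2:**
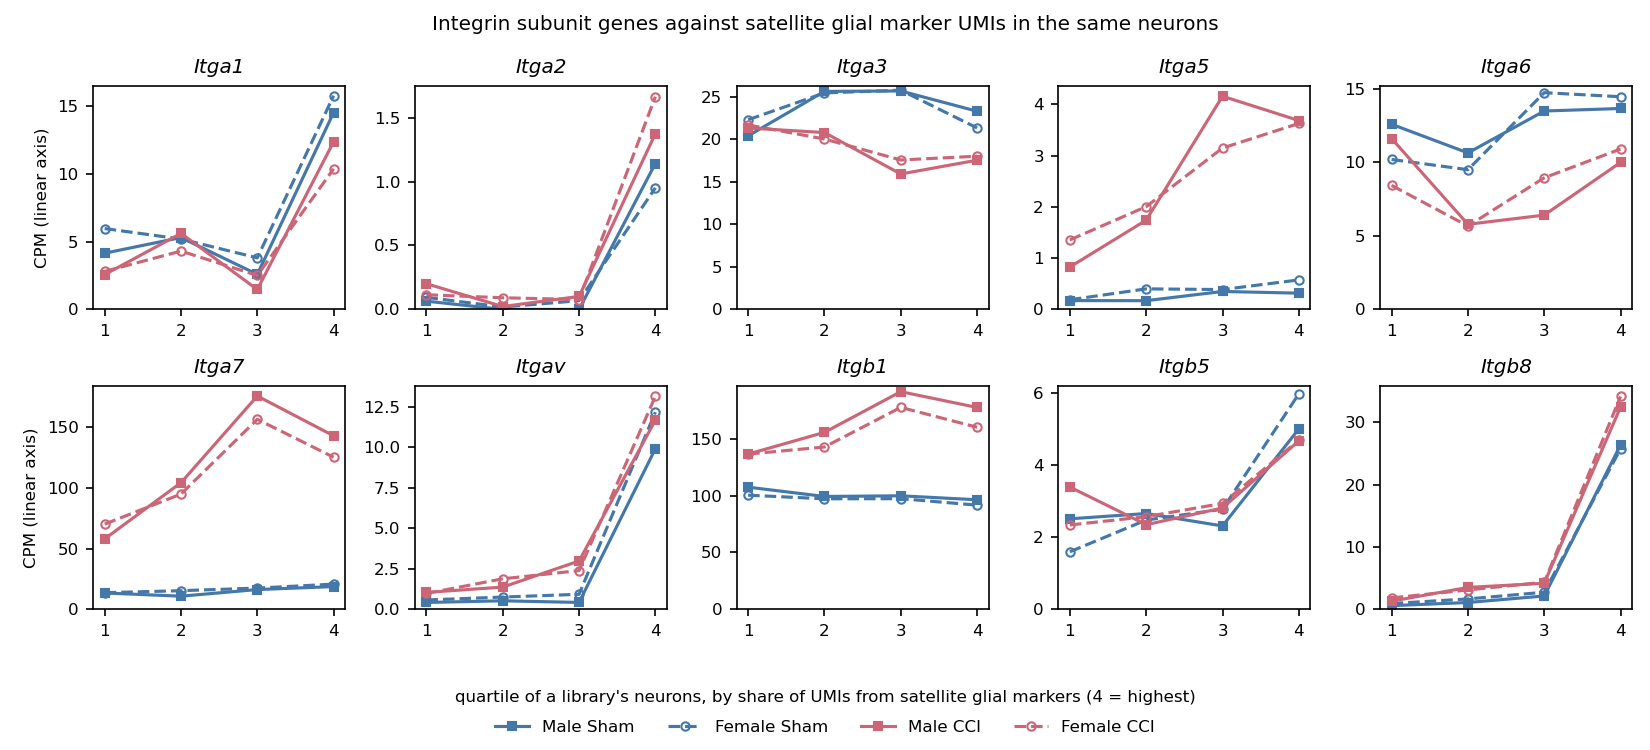
CPM of each gene (linear axes from 0) in 4 quartiles of the neurons of each library, ordered by the share of UMIs from 8 SGC marker genes (quartile 4 highest). Itgb8, Itgav, and Itga2 are concentrated in quartile 4 in all 4 libraries, while Itga7, Itga5, and Itgb1 lie higher in the CCI libraries in every quartile.

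The SGC-like cells themselves also differed between surgeries. In them Itga1 was at 33.1 and 34.9 CPM in the sham and 74.6 and 68.3 CPM in the CCI libraries (log2 change 1.04 ± 0.24 (SE), adjusted p = 0.00829), and Itgb8 at 410.0 and 404 CPM and 644 and 624 CPM (log2 change 0.59 ± 0.12 (SE), adjusted p = 0.00161). Of 8 genes tested there these 2 were called, where 3.26% of all genes were. Itga7 was at 114 and 131 CPM and 143 and 192 CPM and did not pass the test (adjusted p = 0.223), although it was higher in both CCI libraries. Fibroblast markers moved with these results, at 297 and 339 CPM in the SGC-like cells of sham and 489 and 523 CPM in those of CCI with 2 of the 6 markers at 0 in each group, and their part in the result was not tested.

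Comparing the 2 Sprr1a states within the CCI libraries, 9 of the 10 genes were called, 6 higher (Itga5, Itga7, Itgav, Itgb1, Itgb5, and Itgb8) and 3 lower (Itga1, Itga3, and Itga6), in a comparison that called 45.6% of 16240 genes, 20.9% higher and 24.7% lower. With any Sprr1a UMI counted as positive 5 of the 10 were called, and the calls of Itga3, Itgav, Itgb5, and Itgb8 were lost. The median log2 change was 0.544 for the 10 genes and -0.00060 for all genes. Markers of other cells differed between the states as well. The 6 endothelial markers summed to 0.857 to 0.959 CPM in Sprr1a- and 4.29 to 6.2 CPM in Sprr1a+ neurons of CCI (at most 1 of them at 0 in a library), the 6 fibroblast markers to 5.48 to 6.18 and 8.50 to 9.0 CPM, and the 8 SGC markers to 1257 to 1318 and 921 to 1200 CPM, and their part in the calls was not tested. Classes are not evenly spread over the 2 states, with 1095 and 1283 Sprr1a+ CCI-ind-like neurons against 33 and 52 Sprr1a- ones, and with 0 and 1 Sprr1a+ against 134 and 172 Sprr1a- PEP2-like neurons, so the comparison was repeated within classes that held at least 10 cells of both states in each CCI library.

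**Figure D3:**
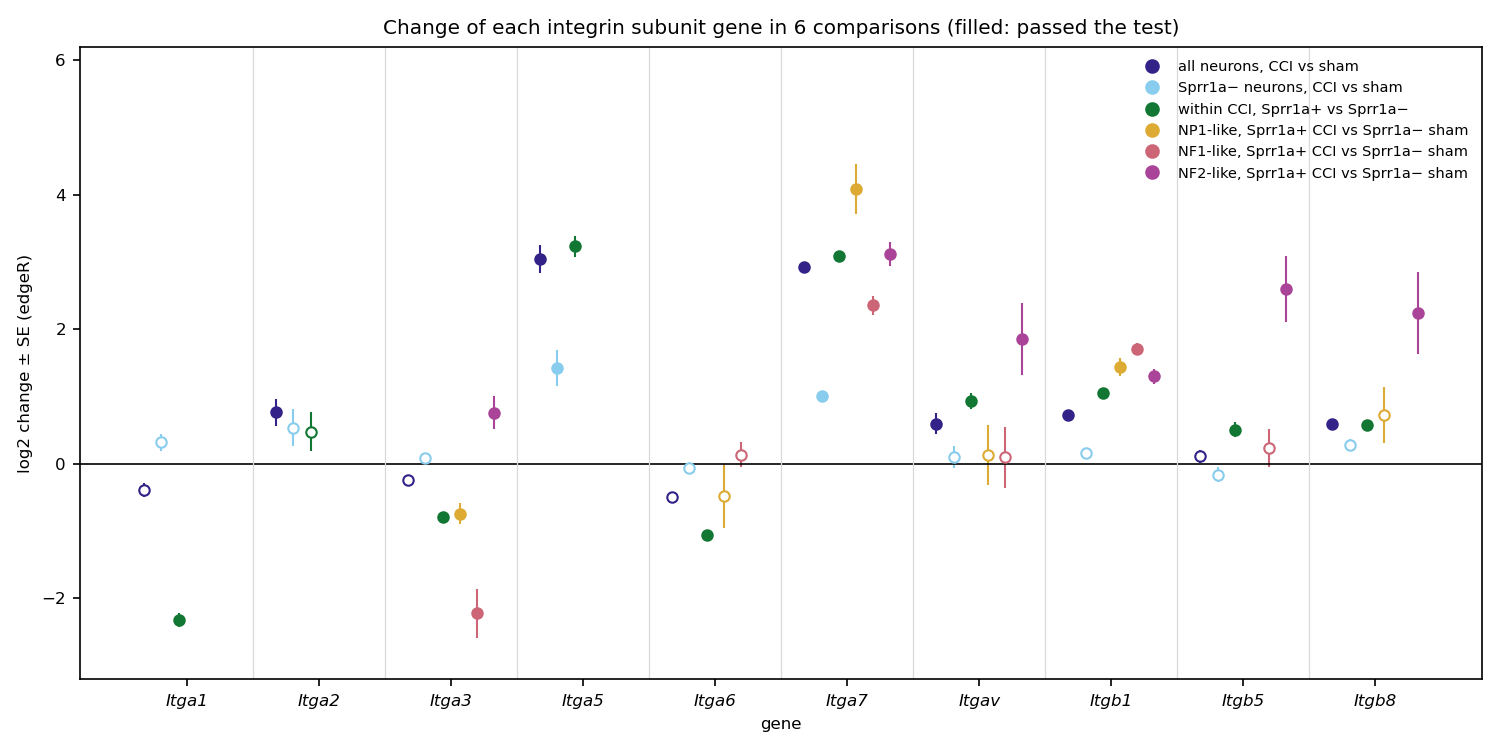
Log2 change ± SE from edgeR of each gene in 6 comparisons, filled where the gene was called. A gene without a point in a comparison was not tested there or had 0 UMIs in its reference group. Itga7 is above 0 in all 6 comparisons, while Itga3 falls in NP1- and NF1-like and rises in NF2-like neurons.

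The next comparison asked what differed between injured neurons that kept their class and uninjured neurons of that class, with Sprr1a+ neurons taken from the CCI and Sprr1a- neurons from the sham libraries. It was made for NP1-like neurons, a class of non-peptidergic neurons marked by Nppb and Sst, and for NF1- and NF2-like neurons, both large neurofilament-rich classes. The sham group is the same set of libraries in each. In NP1-like neurons 4 of 7 genes tested were called where 41.6% of all genes were, in NF1-like neurons 3 of 6 where 45.5% were, and in NF2-like neurons 6 of 6, all higher, where 43.7% were and 21.3% were higher. The 4 called in NP1-like neurons include Itga5, which had 0 UMIs in the sham group. It passed the filter on low counts through the CCI group alone.

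Itgb1 was higher in each of the 3 classes. In NP1-like neurons it was at 46.4 and 65.5 CPM in the sham libraries and rose to 154 and 135 CPM after CCI (log2 change 1.44 ± 0.13 (SE), adjusted p = 2.60e-10). NF1-like neurons went from 90.9 and 83.6 CPM to 228 and 228 CPM (log2 change 1.71 ± 0.089 (SE), adjusted p = 3.44e-09, and 1.02 to 1.77 under the alternatives described below), and NF2-like neurons from 90.7 and 84.0 CPM to 193 and 173 CPM (log2 change 1.30 ± 0.11 (SE), adjusted p = 5.78e-06). The groups did not overlap in any of them, and the rise did not pass the test of a difference between any 2 of these classes (adjusted p 0.148 to 0.605 over the 3 pairs). Itga7 likewise was higher in each. In NP1-like neurons it rose from 7.01 and 17.2 CPM in sham to 201 and 172 CPM in CCI (log2 change 4.08 ± 0.37 (SE), adjusted p = 0.00275, and adjusted p = 0.0602 without Female-CCI). In NF1-like neurons it rose from 12.1 and 11.5 CPM to 49.7 and 45.8 CPM (log2 change 2.36 ± 0.14 (SE), adjusted p = 1.19e-08), and NF2-like neurons went from 18.6 and 13.8 CPM to 103 and 142 CPM (log2 change 3.12 ± 0.18 (SE), adjusted p = 9.06e-07). Its rise was larger in NP1-like than in NF1-like neurons (difference of the log2 changes 1.77 ± 0.41 (SE), adjusted p = 0.00828), but NF1-like neurons hold 2 clusters in shares that differ between the groups, and with the Ntng1-led cluster alone in their place, described below, the difference was 0.88 ± 0.44 (SE) and did not pass the test (adjusted p = 0.170). Such differences were called for 28.7% of all genes between NP1- and NF1-like, 21.9% between NP1- and NF2-like, and 16.1% between NF1- and NF2-like neurons.

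Itga3 went in opposite directions between classes. It was lower in NP1-like neurons, at 34.0 and 39.0 CPM in sham and 22.6 and 18.9 CPM in CCI (log2 change -0.74 ± 0.15 (SE), adjusted p = 4.09e-05), and lower still in NF1-like neurons, where 47.3 and 54.3 CPM fell to 11.3 and 2.35 CPM (log2 change -2.22 ± 0.37 (SE), adjusted p = 0.00372). The size of the latter fall depended on the libraries and the Sprr1a limit, at -4.13 without Male-CCI, -1.78 without Female-CCI, and -0.88 with any Sprr1a UMI counted as positive, and it was called in each. In NF2-like neurons it was higher, with 8.37 and 12.7 CPM in sham against 16.8 and 12.9 CPM in CCI (log2 change 0.76 ± 0.24 (SE), adjusted p = 0.0235), although the female libraries nearly met, and the call was lost with DESeq2 (adjusted p = 0.0987), with any Sprr1a UMI counted as positive (0.0821), without Male-CCI (0.109), and without Male-Sham (0.226). The difference between classes was called for all 3 pairs, at 1.52 ± 0.45 (SE), adjusted p = 0.0268 for NP1-like minus NF1-like, -1.5 ± 0.43 (SE), adjusted p = 0.0281 for NP1-like minus NF2-like, and -3.01 ± 0.48 (SE), adjusted p = 0.00155 for NF1-like minus NF2-like. With the Ntng1-led cluster in place of the NF1-like class both differences that involve it were called as well, at 1.97 ± 0.41 (SE), adjusted p = 0.00280, and -3.47 ± 0.43 (SE), adjusted p = 1.35e-04.

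The NF1-like class was made of a cluster led by Ntng1, in which Itga3 was at 55.7 CPM over all libraries, and a cluster led by Pvalb, in which it was at 0.682 CPM. The Ntng1-led cluster held 96.4% and 93.8% of the Sprr1a+ NF1-like neurons of Male-CCI and Female-CCI, and 63.5% and 72.7% of the Sprr1a- neurons of Male-Sham and Female-Sham. In the Ntng1-led cluster alone, which was examined after this difference had been seen, Itga3 was at 68.5 and 71.1 CPM in Sprr1a- neurons of sham and 11.3 and 2.53 CPM in Sprr1a+ neurons of CCI (log2 change -2.67 ± 0.29 (SE), adjusted p = 8.85e-05), and Sprr1a- neurons of the same cluster in CCI held 74.8 and 52.2 CPM (log2 change -2.76 ± 0.22 (SE), adjusted p = 5.97e-19, where 41.4% of all genes were called). The fall of Itga3 was as large without the Pvalb-led cluster, in 53 and 30 Sprr1a+ cells. Itga7 and Itgb1 were also higher there (log2 change 3.25 ± 0.16 (SE), adjusted p = 1.16e-12, and log2 change 1.76 ± 0.091 (SE), adjusted p = 1.52e-12), and so was Itgb5, at 6.43 and 3.95 CPM and 10.7 and 6.32 CPM (log2 change 1.13 ± 0.32 (SE), adjusted p = 0.00567), in a comparison that called 47.3% of all genes. Itgb5 was not called over the whole class (log2 change 0.24 ± 0.28 (SE), adjusted p = 0.503), of which the Pvalb-led cluster held it at 21.1 CPM.

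NP1-like neurons likewise fell into 2 clusters, led by Cd207 and by Sst, and these followed the Sprr1a state. The Cd207-led cluster held 99% and 98.2% of the Sprr1a+ NP1-like neurons of CCI and 1.2% and 11.3% of the Sprr1a- ones of sham, so neither cluster alone had enough cells of both states for a test, and in this class Sprr1a state and cluster cannot be told apart. Itga5 had 0 UMIs in the Sprr1a- NP1-like neurons of sham and 37 UMIs in the Sprr1a+ ones of CCI, at 3.15 and 2.38 CPM. Against 3 UMIs over the sham group this was at least 6.18-fold higher. Itgb5, with 0 UMIs in sham and 16 in CCI, was at least 2.67-fold higher by the same floor and was not tested.

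In NF2-like neurons all 6 genes tested were called higher. Beside Itga3, Itga7, and Itgb1, Itgb5 was at 1.2 and 1.15 CPM in sham and 3.97 and 8.95 CPM in CCI (log2 change 2.60 ± 0.49 (SE), adjusted p = 0.00138). Itgav was at 0.683 and 0.961 CPM and 1.85 and 3.54 CPM (log2 change 1.86 ± 0.54 (SE), adjusted p = 0.0147), and Itgb8 at 1.88 and 0.961 CPM and 3.04 and 9.57 CPM (log2 change 2.25 ± 0.61 (SE), adjusted p = 0.0129). The CCI libraries lay above the sham libraries for each, but the last 2 values rest on 9 against 31 UMIs and 16 against 69 UMIs, and the call of Itgav was lost with DESeq2 (adjusted p = 0.0986) and without Female-CCI (0.117), Male-Sham (0.146), or Female-Sham (0.0679), and that of Itgb8 without Female-Sham (0.0885). The log2 change of Itgb8 was 1.34 without Female-CCI, 1.88 without Female-Sham, 2.82 without Male-Sham, and 2.91 without Male-CCI. The change of Itgb5 differed between NF1- and NF2-like neurons (-2.38 ± 0.59 (SE), adjusted p = 0.00835 for NF1-like minus NF2-like), but with the Ntng1-led cluster in place of the NF1-like class the difference was -1.49 ± 0.63 (SE) and did not pass the test (adjusted p = 0.108).

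At a coarser clustering (resolution 0.4, added after the data were seen because the finer one left too few Sprr1a+ cells), PEP5-like neurons, a class marked by the cold receptor Trpm8, could be tested as well. The Sprr1a+ cells of this coarser class were nearly all from 1 cluster, led by Ankrd1 and named CCI-ind-like at the finer resolution (145 of 149 in Male-CCI and 149 of 160 in Female-CCI), whereas the Sprr1a- cells of sham were from the finer PEP5-like clusters but for 1 of 300 and 5 of 532. Sprr1a state and cluster therefore cannot be told apart here. Itga7 was at 27.7 and 28.0 CPM in Sprr1a- neurons of sham and 182 and 179.9 CPM in Sprr1a+ neurons of CCI (log2 change 3.0 ± 0.089 (SE), adjusted p = 2.81e-23). Itgb5 was at 1.59 and 2.45 CPM and 11.6 and 11.1 CPM (log2 change 2.74 ± 0.25 (SE), adjusted p = 3.56e-11), and Itgb1 at 101 and 93.5 CPM and 165 and 146 CPM (log2 change 0.98 ± 0.084 (SE), adjusted p = 1.12e-11). Itga6 fell from 33.1 and 32.1 CPM to 10.8 and 11.1 CPM (log2 change -1.28 ± 0.14 (SE), adjusted p = 9.92e-10) and Itga3 from 15.3 and 16.4 CPM to 8.68 and 6.37 CPM (log2 change -0.77 ± 0.18 (SE), adjusted p = 3.20e-04). These 5 of 8 genes were called where 46.4% of all genes were. Within the CCI libraries, where 43.3% were, 5 genes were called between the Sprr1a+ cells, largely of the Ankrd1-led cluster, and the Sprr1a- cells, of which 4 of 160 and 5 of 197 were of that cluster, with Itga7 at 2.44 ± 0.083 (SE) and Itga6 at -1.45 ± 0.15 (SE) on the log2 scale, from the Sprr1a+ sums already used against sham.

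The Sprr1a+ neurons of the 3 classes were also set against Sprr1a- neurons, class by class, within the CCI libraries. The Sprr1a+ sums are the ones used against sham, so these values stand beside the former ones and are not independent of them. Itgb1 was higher in Sprr1a+ neurons by 0.90 ± 0.11 (SE) on the log2 scale in NP1-like, 1.46 ± 0.10 (SE) in NF1-like, and 0.80 ± 0.13 (SE) in NF2-like neurons, with adjusted p of 2.14e-05, 3.90e-21, and 7.78e-04. Itga3 differed by -0.57 ± 0.18 (SE), -1.91 ± 0.24 (SE), and 0.64 ± 0.22 (SE) in these classes, with adjusted p of 0.0259, 8.31e-08, and 0.0396. Itga7 was higher in NF1-like (log2 change 1.84 ± 0.17 (SE), adjusted p = 2.77e-15) and NF2-like neurons (log2 change 1.97 ± 0.13 (SE), adjusted p = 2.73e-06) and did not pass the test in NP1-like neurons (log2 change 1.92 ± 0.61 (SE), adjusted p = 0.262). Of the genes tested 2 of 5, 3 of 6, and 5 of 6 were called in the 3 classes, where 23.9%, 43.8%, and 34.8% of all genes were.

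Sprr1a- neurons were compared between CCI and sham to see whether neurons without the injury marker also changed. Here 4.47% of 16406 genes were called, 3.23% higher, and 2 of the 10 genes, both higher. The 6 endothelial markers summed to 0.607 to 0.709 CPM in the sham and 0.857 to 0.959 CPM in the CCI neurons compared, and the 8 SGC markers to 1460 to 1792 and 1257 to 1318 CPM, and their part in the calls was not tested. With any Sprr1a UMI counted as positive Itga1 (log2 change 0.83) and Itgb8 (0.62) were called higher too, and Itga5 was not called (adjusted p = 0.111). Itga7 was at 12.4 and 12.6 CPM in the sham and 24.3 and 26.8 CPM in the CCI libraries, higher in both CCI libraries (log2 change 1.00 ± 0.067 (SE), adjusted p = 0.00213). Itga5 was at 0.157 and 0.213 CPM and 0.536 and 0.479 CPM (log2 change 1.42 ± 0.27 (SE), adjusted p = 0.0171), on 64 and 78 UMIs, and this call was lost without Male-CCI (adjusted p = 0.0699), without Female-CCI (0.0663), and without Male-Sham (0.0797). Sprr1a- is a limit on the log-normalized value, and 881 of the 1350 such neurons of Male-CCI and 1123 of the 1848 of Female-CCI held some Sprr1a transcript, but those without any held Itga7 at 20.2 and 21.5 CPM, also above the sham level. The Sprr1a- neurons of CCI also included 47 cells of Male-CCI (3.48%) and 86 of Female-CCI (4.65%) from 6 clusters in which over 90% of the CCI neurons were Sprr1a+, which are the 4 CCI-ind-like clusters, the Ly6a-led cluster, and the Cd207-led cluster, against 8 and 20 cells in sham. Without these clusters, an alternative chosen after the data were seen, Itga7 was at 12.1 and 12.3 CPM in sham and 17.4 and 18.9 CPM in CCI, and its change fell to 0.55 (adjusted p = 0.00799) on the log2 scale, just above the size limit. Itga5 was then at 0.151 and 0.203 CPM and 0.292 and 0.238 CPM and was no longer called (log2 change 0.55 (adjusted p = 0.281)).

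By class, Itga7 was called higher in Sprr1a- neurons of CCI in 4 of 11 classes, its CCI libraries lay above its sham libraries in all 11, and it was the only one of the 10 genes called in more than 1 class. It was at 6.77 and 8.41 CPM in sham and 14.0 and 14.3 CPM in CCI in PEP3/4-like neurons (log2 change 0.88 ± 0.13 (SE), adjusted p = 0.00110), where 3.56% of all genes were called. In NF2-like neurons it went from 18.6 and 13.8 CPM to 28.0 and 42.5 CPM (log2 change 1.18 ± 0.22 (SE), adjusted p = 0.0216, 1.92% of all genes called). The change was 0.56 ± 0.10 (SE) in PEP1-like (5.18% of all genes called) and 0.50 ± 0.14 (SE) in PEP2-like neurons (4.37%), with adjusted p of 0.00657 and 0.0235. Beside it Itgb5 fell in PEP3/4-like neurons from 6.77 and 5.29 CPM to 3.68 and 3.98 CPM (log2 change -0.65 ± 0.18 (SE), adjusted p = 0.0264), and Itgb8 rose in PEP5-like neurons from 10.0 and 11.4 CPM to 15.2 and 21.6 CPM (log2 change 0.74 ± 0.18 (SE), adjusted p = 0.00954), where 3.35% of all genes were called. None of the 10 genes was called in the other classes, cLTMR-like (1.71% of all genes called), NF1-like (1.11%), NP1-like (3.97%), NP2-like (4.46%), and NP3-like neurons (2.56%) and the Rxfp1-led cluster (0.78%), by edgeR, with Itga7 in NP2-like neurons past the adjusted p but under the size limit (log2 change 0.37, adjusted p = 0.0387). PEP5-like neurons included a cluster rich in SGC markers (13960 CPM summed), and the part of these transcripts in the rise of Itgb8 was not tested.

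Few sham neurons were Sprr1a+, 42 and 144, and the comparison with Sprr1a+ neurons of CCI is limited by that number. Of the 10 genes 1 was called between Sprr1a+ neurons of CCI and of sham, where 9.45% of all genes were: Itgb8, at 3.97 and 6.15 CPM in sham and 10.3 and 10.9 CPM in CCI (log2 change 0.94 ± 0.20 (SE), adjusted p = 0.00441). The summed SGC markers in these cells were 775 and 1151 CPM in sham and 921 and 1200 CPM in CCI. The 6 endothelial markers summed to 0.665 to 1.19 CPM in sham, with 2 to 4 of them at 0, and 4.29 to 6.2 CPM in CCI, and the 8 immune markers to 4.82 to 45.2 CPM in sham, with 1 to 6 at 0, and 5.85 to 10.1 CPM in CCI. The makeup of these cells differed as well. CCI-ind-like neurons were 163 of the 186 in sham and 2378 of the 3256 in CCI. The Ly6a-led cluster held 374 of those in CCI, with Itgb8 at 20.8 to 26.3 CPM. In the CCI-ind-like ones Itgb8 was at 4.23 to 6.10 CPM in sham and 10.1 to 10.4 CPM in CCI. The part of any of these in the difference of Itgb8 was not tested. Itga7 was at 142 and 137 CPM in the Sprr1a+ neurons of sham and 196 and 191 CPM in those of CCI, under the size limit (log2 change 0.46 ± 0.079 (SE), adjusted p = 0.00101), and Itgb1 at 215 and 187 CPM and 209 and 196 CPM with overlapping libraries (log2 change 0.0095 ± 0.085 (SE), adjusted p = 0.962).

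Levels differed widely between classes. Because clusters were built from the same cells and 7 integrin genes were among the variable genes used to build them, these levels are a description without a test. They are means ± SD over the 4 libraries, for the 12 classes of neurons with at least 10 cells in each, and leave out the Ly6a-led cluster, whose levels are given for the CCI libraries only. Itga1 was at 101 ± 10.9 CPM in PEP2-like neurons and 44.3-fold lower in the next class, and within PEP2-like neurons at 221 CPM in a cluster led by Dcn and 4.37 CPM in one led by Stum. The levels of the other classes overlapped with their neighbours in order from the second, at 2.28 CPM, to the lowest, at 0.138 CPM in NP3-like neurons. Itga6 was highest in cLTMR-like neurons, the C-fiber low-threshold mechanoreceptors, at 39.1 ± 3.85 CPM, and PEP5-like neurons, at 34.7 ± 3.46 CPM, overlapped with them. NF1-like neurons came next at 26.1 ± 3.08 CPM without overlap, and NF2-like neurons were lowest at 0.723 ± 0.514 CPM.

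Itga3 was at 38.0 ± 15.3 CPM in NF1-like and 37.3 ± 7.66 CPM in PEP2-like neurons, which overlapped, and lowest in CCI-ind-like neurons, the clusters that appear after injury, at 11.9 ± 1.54 CPM. Among the 12 classes Itga7, Itga5, and Itgb1 were all highest in CCI-ind-like neurons. Itga7 stood there at 176 ± 33.0 CPM, followed by NP1-like (91.1 ± 78.7 CPM) and NF2-like neurons (51.7 ± 41.5 CPM) over sham and CCI libraries together, with overlap between neighbours in this order. The Ly6a-led cluster lay above CCI-ind-like neurons in both CCI libraries for Itga7, at 259 and 223 CPM against 210.2 and 196 CPM, and below them for Itga5, at 1.75 and 1.55 CPM against 5.28 and 5.48 CPM, and for Itgb1, at 197 and 194 CPM against 219 and 205 CPM. Itga5 was at 5.76 ± 0.463 CPM in CCI-ind-like and 1.63 ± 0.384 CPM in PEP2-like neurons without overlap, and no UMI of it was found in cLTMR-like neurons or the Rxfp1-led cluster. Itgb1 was at 217 ± 15.6 CPM in CCI-ind-like and 139 ± 5.29 CPM in PEP2-like neurons, again apart, and from PEP2-like down to PEP3/4-like neurons at 86.5 ± 4.62 CPM each class overlapped with the next.

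Itgb5 was high in NF1-like (10.1 ± 2.05 CPM) and PEP2-like neurons (9.44 ± 1.58 CPM), which overlapped and stood apart from PEP3/4-like neurons (4.93 ± 1.41 CPM). Among the 12 classes Itgb8, Itgav, and Itga2 were highest in the unnamed cluster led by Rxfp1, at 17.6 ± 10.5 CPM, 7.15 ± 3.73 CPM, and 2.38 ± 1.71 CPM, overlapping with PEP5-like neurons in each case. The Ly6a-led cluster held Itgb8 at 25.7 and 20.5 CPM in Male-CCI and Female-CCI, with summed SGC markers at 1445 CPM. The Rxfp1-led cluster held summed SGC markers at 4596 CPM. The neuronal clusters with the highest SGC markers, at 6395 to 13960 CPM, were those led by Oprk1, Gpx2, Sstr2, and Pnoc, and in these Itgb8 was at 24.3 to 43.4 CPM, whereas a second cluster led by Gpx2 with SGC markers at 274 CPM held it at 0.360 CPM and a second one led by Pnoc with SGC markers at 195 CPM held it at 0.533 CPM. The part of glial transcripts in the class levels of these 3 genes was not tested. Among the 12 classes ranked, without the Ly6a-led cluster, the one with the highest level was the same for each of the 10 genes under all 4 alternative clusterings.

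**Figure D4:**
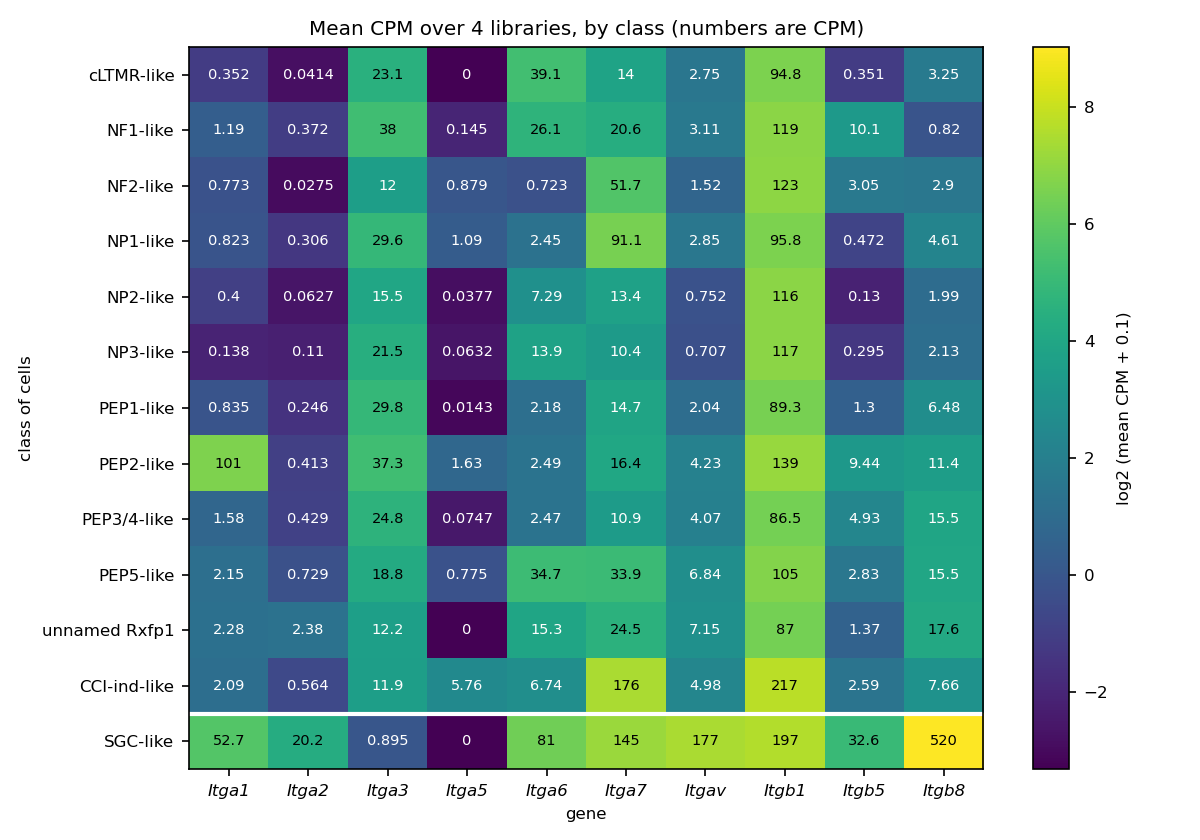
Mean CPM over the 4 libraries of each gene (columns) in the 12 classes of neurons present in every library, without the Ly6a-led cluster, and in SGC-like cells (last row, below the white line), with color on a log2 scale after adding 0.1 CPM. Itga1 is at 101 CPM in PEP2-like neurons, at 2.28 CPM or less in the other neuron classes shown, and at 52.7 CPM in SGC-like cells. Itgb8 is at 520 CPM in SGC-like cells.

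When the neurons of the CCI libraries were ordered by their log-normalized Sprr1a value in 5 steps (0, above 0 to 1, above 1 to 2, above 2 to 3, and above 3), Itga7 went through 20.2, 25.7, 157, 169.6, and 204 CPM in Male-CCI and 21.5, 29.0, 153, 173, and 203 CPM in Female-CCI. It was higher at each step in both libraries, with the largest rise at the limit of 1 that defines Sprr1a+ neurons. Itgb1 went through 107, 110.1, 199, 214, and 209 CPM in Male-CCI and 106, 111, 186, 196, and 197 CPM in Female-CCI, with little difference between the steps above the limit. Itga5 was highest in the neurons just above the limit, at 0.365, 0.595, 5.62, 3.69, and 4.16 CPM in Male-CCI and 0.425, 0.502, 6.48, 3.53, and 4.48 CPM in Female-CCI, in a step of 71 and 139 cells. Itga3 fell at each step in both libraries, through 26.1, 25.9, 22.0, 16.0, and 12.1 CPM and 27.6, 25.1, 17.6, 13.7, and 12.6 CPM. Itga1 and Itga6 fell to the third step and had no common order above it. Since the steps differ in class makeup, these series carry no test.

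**Figure D5:**
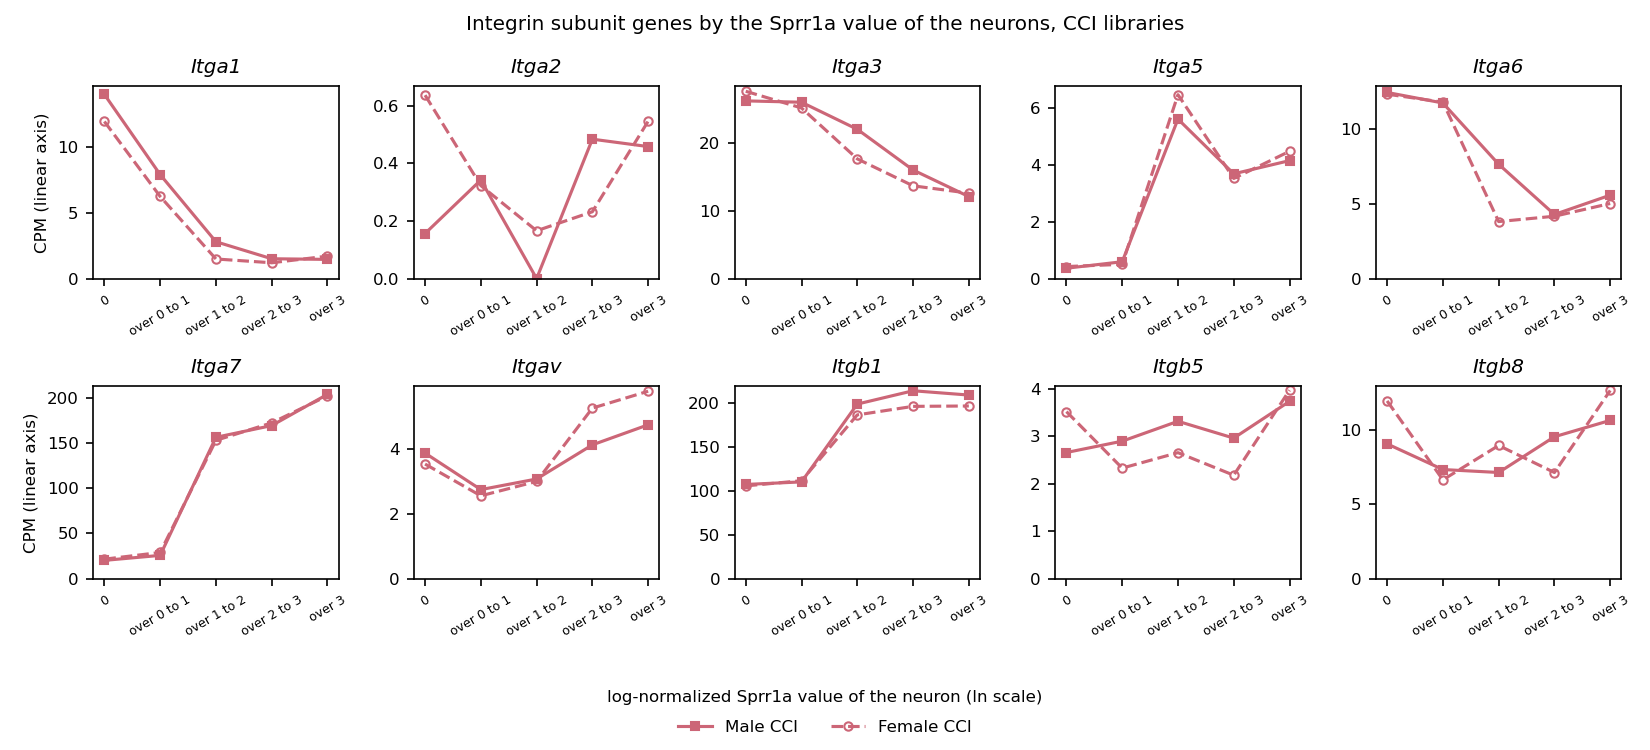
CPM of each gene (linear axes from 0) in neurons of Male-CCI (solid line, squares) and Female-CCI (dashed line, circles), grouped by the log-normalized Sprr1a value of the neuron. Itga7, Itgb1, and Itga5 rise between the second and the third step in both libraries, and Itga1, Itga3, and Itga6 fall.

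For each gene the 3 genes with the most similar pattern, of which some are named here, were taken by Pearson correlation of log2(CPM + 1) over 44 sums (11 classes in 4 libraries, 17233 genes). The sums of a library share depth and mice, so the values are descriptions. Itga7 was most like Tgif1 (r = 0.951) and Lamb3 (r = 0.951), and Lamb3 encodes a laminin chain. Itga5 was most like Cth (r = 0.911), Cited2 (r = 0.905), and Hrk (r = 0.902), and Itgb1 most like Sympk (r = 0.839), Slc7a1 (r = 0.813), and Eif3c (r = 0.807). Itga1 was most like Tmc3 (r = 0.965), Wnt3 (r = 0.957), and Cdk1 (r = 0.956), of which Tmc3 was one of the markers used for PEP2-like neurons. Itga6 was most like Rarres1 (r = 0.942), Osbpl1a (r = 0.863), and Brinp2 (r = 0.863). For Itgb5 these genes were Sik3 (r = 0.875), Dleu7 (r = 0.863), and Man2a2 (r = 0.860), and for Itgav Cald1 (r = 0.862), Ptges (r = 0.844), and Ik (r = 0.834). The closest genes of Itga3, Ttll9 (r = 0.767), Carmil1 (r = 0.726), and Paox (r = 0.723), and of Itga2, Lgr5 (r = 0.745), Nup54 (r = 0.745), and Tfap2a (r = 0.733), were less close. Among the 10 genes themselves the closest pair was Itga5 and Itga7 (r = 0.844), followed by Itga5 and Itgb1 (r = 0.798), and the most opposed pair was Itga3 and Itga7 (r = -0.429).

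The other 17 integrin subunit genes were followed as well. Of 14 tested over all neurons 1 was higher and 4 were lower after CCI, with a median log2 change of -0.395, where 27.8% of all genes were called, 15.2% higher and 12.7% lower. Itga2b, the platelet αIIb chain, fell from 6.90 and 7.23 CPM in sham to 3.52 and 3.53 CPM in CCI (log2 change -0.95 ± 0.074 (SE), adjusted p = 9.96e-05), Itga11, a collagen receptor chain, from 0.863 and 0.934 CPM to 0.516 and 0.463 CPM (log2 change -0.82 ± 0.17 (SE), adjusted p = 0.00563), and Itgb7 and Itga9 fell by 1.10 and 0.574 on the log2 scale. Itgae rose (log2 change 0.77 ± 0.17 (SE), adjusted p = 0.00861), from below 0.502 CPM. Within the CCI libraries 1 of 13 of these genes was higher and 8 were lower in Sprr1a+ neurons (median -1.37), where 20.9% of all genes were higher and 24.7% lower.

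Ligands and partners of integrins were also measured. Of 10 laminin chain genes tested over all neurons 4 were higher and 1 lower (median log2 change 0.223), beside 15.2% higher and 12.7% lower among all genes. Lamb3 rose from 0.302 and 0.422 CPM to 4.43 and 4.40 CPM (log2 change 3.65 ± 0.17 (SE), adjusted p = 1.49e-05) and Lama5 from 0.123 and 0.148 CPM to 1.51 and 1.51 CPM (log2 change 3.52 ± 0.18 (SE), adjusted p = 2.24e-05), and the α3 chain gene Lama3 rose by 1.90 ± 0.14 (SE), whereas Lama4 fell (-0.58 ± 0.11 (SE)). Of 28 other ligand genes 10 were higher and 1 lower (median 0.321), read against the same shares. Mfge8, a ligand of αv integrins, rose from 1.5 and 2.01 CPM to 15.7 and 15.1 CPM (log2 change 3.18 ± 0.14 (SE), adjusted p = 2.13e-05), and Tgfb1, whose latent form αvβ8 activates, from 22.4 and 32.6 CPM to 113 and 112 CPM (log2 change 2.09 ± 0.21 (SE), adjusted p = 0.00270). Tnc, Fn1, and Col1a1 were called higher too, but stayed below 0.507 CPM. Fibroblast markers, of which Col1a1 is one, were at 4.89 and 5.65 CPM in sham and 7.11 and 7.60 CPM in CCI neurons, and their part in these 3 results was not tested.

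Of 13 membrane partners of integrins 5 were higher and 2 lower (median -0.099), where 15.2% of all genes were higher and 12.7% lower. Sdc1, a syndecan, rose from 14.9 and 18.7 CPM to 173 and 169 CPM (log2 change 3.40 ± 0.12 (SE), adjusted p = 1.61e-05), and Plaur, the urokinase receptor, from 7.12 and 9.93 CPM to 50.7 and 47.9 CPM (log2 change 2.58 ± 0.17 (SE), adjusted p = 4.16e-04). The tetraspanin gene Cd63 and Slc3a2, the CD98 heavy chain, rose as well, by 1.46 ± 0.089 (SE) and 0.92 ± 0.057 (SE). Of 31 adaptors and activators 4 were higher and 2 lower (median 0.210), where 27.8% of all genes were called. Zyx, a protein of focal adhesions, rose from 31.1 and 32.8 CPM to 83.0 and 77.9 CPM (log2 change 1.39 ± 0.052 (SE), adjusted p = 8.40e-06). The 2 talins, which switch integrins on, moved in opposite directions: Tln1 rose from 67.6 and 64.3 CPM to 124 and 117 CPM (log2 change 0.92 ± 0.052 (SE), adjusted p = 2.88e-05) and Tln2 fell from 160.1 and 135 CPM to 88.8 and 91.5 CPM (log2 change -0.65 ± 0.080 (SE), adjusted p = 6.79e-04). Within the CCI libraries Tln1 was at 78.0 and 77.6 CPM in Sprr1a- and 162 and 156 CPM in Sprr1a+ neurons, and Tln2 at 157 and 151 CPM and 31.2 and 33.3 CPM. Of 11 genes that restrain integrin activation 3 were higher and 2 lower (median 0.0857, 27.8% of all genes called), among them Flnc, a filamin, which rose from 3.48 and 4.71 CPM to 39.9 and 36.6 CPM (log2 change 3.28 ± 0.16 (SE), adjusted p = 7.05e-05).

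Male and female libraries gave the same direction for all 10 genes over all neurons. The log2 ratio of CCI to sham CPM was 3.02 in males and 2.72 in females for Itga7, 3.37 and 2.71 for Itga5, and 0.693 and 0.660 for Itgb1. For Itgb5 it was 0.113 and 0.00278. With 1 library per sex and surgery a difference between the sexes cannot be tested.

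Some of these genes share their position with other annotated genes (GENCODE M21, GRCm38). An exon of Itga1 overlaps one of Gm49395 on the same strand (6 UMIs over all kept cells), and Pelo lies in an Itga1 intron on the same strand (232 UMIs). An exon of Itga7 overlaps one of Mettl7b on the opposite strand (136 UMIs). Gm10734 (866 UMIs) overlaps Itga1 and Gm17250 (173 UMIs) overlaps Itga6, both on the opposite strand and without overlap of exons.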

How the data were processed

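The authors sorted GFP+ cells, built 10x Chromium 3' libraries, and deposited 1 matrix of raw UMI counts per library, aligned to mm10 with Cell Ranger (version 3.0.2 per the file headers, 2.1.1 in the submitters' processing notes). The deposited counts held 23691 cells with 195684124 to 237069156 UMIs per library. Cells with under 1500 genes or over 10% mitochondrial UMIs were removed. Cells were also ranked by Scrublet score (scanpy 1.11.5, expected rate 0.1), and as many of the highest-scoring cells of each library as the study lists as doublets were removed. Scrublet's own threshold called only 2, 121, 0, and 0 cells. The number of cells cut is thus the study's, which cells they are was set by the score, and this left 15715 cells, of which 15133 were neurons. Libraries were integrated with Seurat 5.3.0 (3000 variable genes, 20 principal components, resolution 0.8) into 30 clusters, of which 13 classes of neurons were formed and 11 named from markers, and names rebuilt in this way may differ from the study's. UMIs were summed per library, class, and Sprr1a state where at least 10 cells were present. Sums were tested in edgeR 4.0.16 (R 4.3.3) with filterByExpr, TMM factors, and the robust quasi-likelihood fit, with library as a block within CCI only and Benjamini-Hochberg adjustment over all genes tested. CPM divides by all UMIs of a sum, and the SE is the log2 change divided by the square root of F. On simulated counts for all neurons, 81 of 110 genes changed 2-fold and 87 of 89 changed 4-fold were recovered with 7 false calls among 17038 genes. Alternatives were DESeq2 1.42.0, other filters, scaling, clusterings, and Sprr1a limits, doublets kept, and leaving out each library. The members and lists were chosen with earlier results of these data known. Named genes outside the 10 are the 5 of each list with the largest change among those called over all neurons, of which some are named here, and Tln2 was carried to the comparison within CCI after its values were seen. Some of the genes most similar in pattern to Itga7 and Itgb8 are not reported here.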

Additional observations from a re-analysis of the deposited data

Results flagged for a closer look

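The change between Sprr1a- neurons of sham and Sprr1a+ neurons of CCI differed between classes for 3 of the 10 genes, by edgeR's test of the difference itself (2 libraries per group). Itga1 and Itga2 were not tested. Such differences were called for 28.7% of all genes between NP1- and NF1-like, 21.9% between NP1- and NF2-like, and 16.1% between NF1- and NF2-like neurons. For Itga3 the log2 change of NP1-like neurons minus that of NF1-like neurons was 1.52 (adjusted p = 0.0268), that of NP1-like minus NF2-like neurons was -1.5 (adjusted p = 0.0281), and that of NF1-like minus NF2-like neurons was -3.01 (adjusted p = 0.00155). For Itga7 the difference between NP1- and NF1-like neurons was 1.77 (adjusted p = 0.00828). For Itgb5 the difference was -2.38 between NF1- and NF2-like neurons (adjusted p = 0.00835), and between NP1- and NF1-like neurons it was 5.71 (adjusted p = 0.0377), a fitted value that depends on the prior count because Itgb5 had 0 UMIs in the Sprr1a- NP1-like neurons of sham. With the Ntng1-led cluster alone in place of the NF1-like class, an alternative chosen after the data were seen, the differences of Itga3 were called as well (1.97 and -3.47), whereas those of Itga7 (0.88, adjusted p = 0.170) and of Itgb5 (-1.49, adjusted p = 0.108, and 4.67, adjusted p = 0.0985) were not. The 3 pairs share classes and libraries and are not independent.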

How the results depend on the processing

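With any Sprr1a UMI counted as positive, 5 rather than 9 of the 10 genes were called within the CCI libraries (4760 rather than 7400 of all genes), the change of Itgb8 turned to -0.048, and in NF1-like neurons 2289 rather than 5504 of all genes were called. The cause was not tested. Without the clusters over 90% Sprr1a+ in CCI, chosen after the data were seen, 1 rather than 2 of the genes was called in Sprr1a- neurons (559 of all genes), and 8 rather than 9 within CCI, where the call of Itgb5 was lost. With the Ntng1-led cluster in place of the NF1-like class, differences between classes that had not been called turned to -0.20 for Itgav (NP1- minus NF1-like) and to 0.089 for Itga6, 0.10 for Itga7, and 1.08 for Itgb8 (NF1- minus NF2-like). Leaving out each library in turn leaves 1 library in a group, so counts of genes called in those fits are not given here. The changes that turned direction without a library had not been called. They ranged from -0.21 to 0.37 for Itgav and -0.11 to 1.21 for Itgb8 in NP1-like neurons, from -0.13 to 0.33 for Itga6, -0.33 to 0.50 for Itgb5, and -0.14 to 0.35 for Itgav in NF1-like neurons, and from -0.11 to 0.35 for Itgav in Sprr1a- neurons. The values below 0 came without Male-CCI for Itgav and Itgb8 in NP1-like and Itga6 and Itgb5 in NF1-like neurons, without Male-Sham for Itgav in all 3, and without Female-Sham for Itga6 (-0.06) and Itgb5 (-0.01). With sex as a replicate block, 6 of the genes were called over all neurons (4939 rather than 4796 of all genes), 4, 3, and 6 in NP1-, NF1-, and NF2-like neurons, and 2 in Sprr1a- neurons, as without it, and within CCI 9 were called without the library block. Same-sex libraries deviated together (r = 0.562), but with 2 pairs this is a hint only. Without integration no NF1- or NF2-like comparison could be made, and within CCI leaving out a library leaves 1 pair and no test. Depth limits Itga2 and Itga5, with 86 and 110 UMIs over the sham neurons.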
